A study of Rattus norvegicus with 4 samples.

Results

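The genes described here encode the interferon-inducible part of the proteasome and the machinery that loads its peptides onto class I MHC molecules. They were taken from the expression table by gene symbol, and 10 of its 18699 genes belong to the set: Psmb8, Psmb9, Psmb10, Psme1, Psme2, Tap1, Tap2, Tapbp, B2m and Nlrc5. All 10 passed the filter on low counts and were among the 14519 genes tested. The cells were neonatal rat ventricular myocytes (NRVM), primary heart muscle cells of wild-type Sprague Dawley rats aged 1 to 3 days, kept in culture with 0.1 mM bromodeoxyuridine to hold back dividing cells of other types. One group of 2 libraries came from cells given vehicle and the other group of 2 libraries from cells given 1 µM carfilzomib for 24 h, and both groups shared the culture medium and the bromodeoxyuridine. Carfilzomib is an irreversible proteasome inhibitor used against multiple myeloma, and the study asked how it harms heart cells. Nothing in the labels ties the libraries to separate cultures or litters; a p-value here therefore reflects the spread between libraries alone, and that spread may be technical.

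The proteasome cuts ubiquitin-tagged proteins into peptides. In its standard form the cutting is done by the subunits encoded by Psmb5, Psmb6 and Psmb7. Interferon gamma induces Psmb8, Psmb9 and Psmb10, whose products take their places in newly built particles and give the immunoproteasome, which is abundant in blood-derived immune cells and scarce in resting heart muscle. Carfilzomib binds the chymotrypsin-like subunits, encoded by Psmb5 and Psmb8. Psme1 and Psme2 encode the alpha and beta subunits of PA28, a ring that caps the proteasome and opens its gate. Tap1 and Tap2 encode the transporter that carries peptides into the endoplasmic reticulum, Tapbp encodes tapasin, which bridges the transporter to empty class I molecules, and B2m encodes their light chain. Nlrc5 encodes a transactivator that drives class I genes together with the RFX, NF-Y and CREB/ATF factors.

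Many of these genes carry an interferon-stimulated response element (ISRE), a binding motif of IRF factors, close to their start. The letters GAAA, any 2 bases and GAAA again were searched on both strands in RefSeq promoter sequences of the rat build GRCr8, which is not the build Rnor_6.0 named for the deposited tables. A promoter was found for 9 of the 10 genes; Nlrc5 was not matched. In the 250 bases before the start, 6 of these 9 promoters held the letters, against 3.29% of 27457 rat promoters. With the 50 bases after the start included, a window that was not planned, there were 7 of 9 against 3.77%, the addition being Psmb8. The matches are shown in windows of 30 bases because most of the 9 promoters hold them and few rat promoters do. Each is written 5′ to 3′ on the strand of its gene, with the match in capitals. Those of Psmb8 and Tap1 are on the opposite strand.
Psmb8, chr20:4657016-4657045, minus strand: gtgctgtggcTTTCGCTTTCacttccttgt
Psmb10, chr19:50743346-50743375, minus strand: aagcaaaggcGAAAGTGAAAgagaagatgc
Psmb10, chr19:50743290-50743319, minus strand: agtggggggtGAAAGCGAAAgtaggaagcg
Psme2, chr15:33052785-33052814, minus strand: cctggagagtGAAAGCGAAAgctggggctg
Tap1, chr20:4668645-4668674, minus strand: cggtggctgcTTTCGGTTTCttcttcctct
Tap2, chr20:4652318-4652347, minus strand: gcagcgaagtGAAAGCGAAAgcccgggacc
Tapbp, chr20:4967881-4967910, minus strand: tttgaggGAAAATGAAAGTGAAAggaaaca
B2m, chr3:129549170-129549199, plus strand: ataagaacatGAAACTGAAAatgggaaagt

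The match of Psmb8 begins 4 bases before the start and runs across it, and that of B2m lies farthest away, with its first base 150 bases before the start. Tapbp holds 2 overlapping matches, at 26 and 20 bases before the start, and Psmb10 holds 2 separate ones, at 73 and 17 bases before it. The Psmb10 promoter is shown over 120 bases up to the start, since it holds 2 separate matches.
Psmb10, chr19:50743293-50743412, minus strand: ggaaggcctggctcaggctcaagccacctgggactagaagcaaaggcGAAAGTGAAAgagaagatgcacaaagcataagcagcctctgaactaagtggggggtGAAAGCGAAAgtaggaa
Psme1 and Psmb9 held no match in these windows. Psme1 is shown for contrast, over 120 bases that end 10 bases short of the start, with its GC box (GGGCGG) in capitals.
Psme1, chr15:33038841-33038960, plus strand: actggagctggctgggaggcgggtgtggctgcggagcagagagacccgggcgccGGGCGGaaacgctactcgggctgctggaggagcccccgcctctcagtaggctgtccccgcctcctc
Of the other motifs searched in the 250 bases before the start, the antioxidant response element letters TGACNNNGC were in 1 of the 9 promoters (Tapbp), against 10.2% of all promoters. CCAAT was in 2 against 34.3%, GGGCGG in 5 against 32.4%, and the kappa-B letters (GGG, any 5 bases, CC), which can overlap a GC box, in 6 against 43.5%. Such matches describe the letters only, and another motif that was searched is not reported here.

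In the RefSeq gene order, Tap2, Psmb8, Tap1 and Psmb9 follow each other without a gene between them on chromosome 20, flanked by the class II genes RT1-DOb and RT1-DMb. Tap1 and Psmb9 point away from each other, and the windows searched for them share 44 bases. The ISRE match of Tap1 lies between their starts, outside the window of Psmb9. Psme1 and Psme2 lie on chromosome 15 with only Emc9 between them. The gene models of Psme1 and Emc9 overlap in that annotation, and the sources used here do not give the strand setting of the counting, so reads of the overlap cannot be assigned with certainty.

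The 4 libraries held between 18655499 and 18884362 estimated counts. Heart muscle markers summed to 33032 to 33039 CPM (library-size-scaled counts, TMM-normalised) with vehicle, the highest sum of the cell types checked, and to 10477 to 10969 CPM with carfilzomib, where fibroblast markers summed higher; 9 of 10 tested fell. Macrophage markers, whose cells make immunoproteasome at rest, summed to 119 to 125 CPM with vehicle and 56.5 to 64.0 CPM with carfilzomib. Of 12 tested macrophage markers 11 fell and 1, Cd14, rose, and the median was -2.09 in log2 fold change. Lyz2 went from 35.3 and 34.8 CPM to 5.97 and 5.03 CPM. Cd163 was at the floor in all libraries and was not tested, with 1 count in each vehicle library and 0 in both carfilzomib libraries. Endothelial markers summed to 134 to 135 CPM and 128 to 131 CPM, with 2 higher and 4 lower of 10. Fibroblast markers summed to 27710 to 28269 CPM and 14793 to 15518 CPM, and all 9 fell. Smooth muscle markers summed to 3881 to 4016 CPM and 1340 to 1383 CPM, and all 6 fell. By the same measure, an edgeR adjusted p under 0.05, 30.1% of all genes tested fell and 30.6% rose. T and NK cell markers summed to at most 2.38 CPM and B cell markers to at most 1.19 CPM in any library. In bulk RNA, fewer cells of a type and less RNA per cell cannot be told apart, and the part of these shifts in the results below was not tested.

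Carfilzomib raised 1 of the 10 genes, Tapbp, and lowered 4, Psmb8, Psmb9, Psmb10 and Psme1, while Psme2, Tap1, Tap2, B2m and Nlrc5 did not pass. A gene was called at an edgeR adjusted p under 0.05 over all genes tested. With DESeq2 the falls of Psmb8, Psmb9 and Psmb10 did not pass, as given below. Of the 14519 genes 60.7% were called, 30.6% higher and 30.1% lower, so 5 of 10 called is near the background and is not in itself a result about the set. The median absolute log2 fold change was 0.34 for the 10 genes and 0.34 for all genes tested, and the signed medians were -0.16 and 0.003. Only Tapbp moved at least 2-fold, as did 11.7% of all genes. The authors' deposited table of called genes lists 2 of the 10, Psme1 with a log2 fold change of -0.55 and Tapbp with 1.19.

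**Figure D1:**
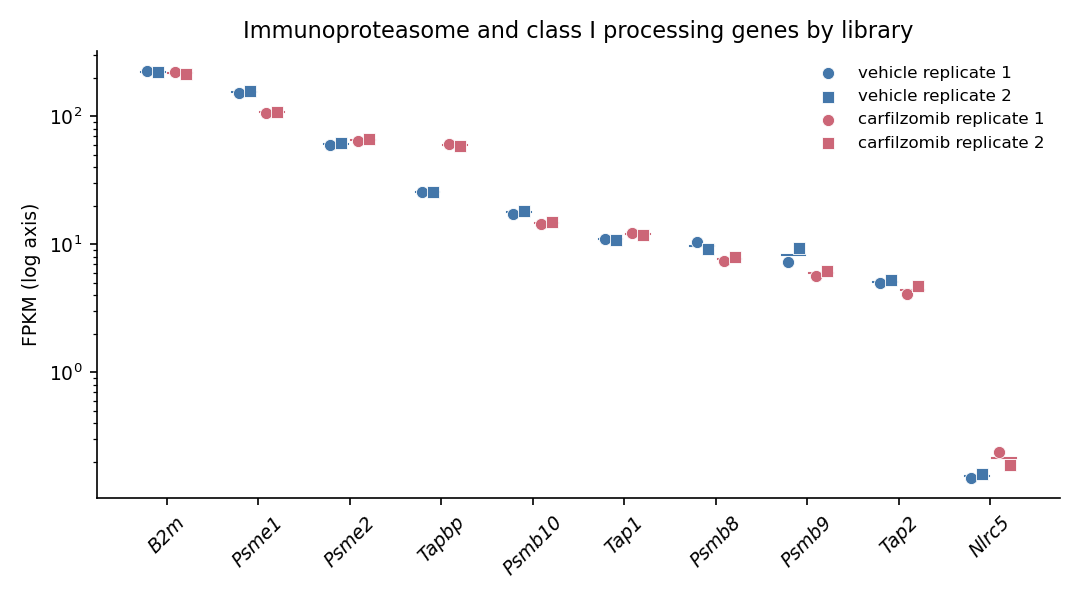
FPKM of the 10 genes in each of the 4 libraries on a log axis, ordered by the vehicle mean; points are libraries and short lines are group means. Levels run from about 223 FPKM for B2m to 0.155 FPKM for Nlrc5 with vehicle, and Tapbp is the gene whose groups stand farthest apart.

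Per unit of gene length, in FPKM, the genes kept the same order in both groups. B2m was highest, with 223 ± 3.34 FPKM with vehicle and 218 ± 5.68 with carfilzomib (mean ± SD, n = 2 per group, as for all such values). It was followed by Psme1, Psme2, Tapbp, Psmb10, Tap1, Psmb8, Psmb9, Tap2 and Nlrc5. Tapbp stood at 25.6 ± 0.0990 FPKM with vehicle, far below Psme2 at 60.4 ± 1.73. With carfilzomib it reached 59.5 ± 1.28 FPKM, next to Psme2 at 65.4 ± 1.06. Psmb8 and Psmb9 with vehicle, at 9.16 to 10.4 and 7.22 to 9.33 FPKM, overlapped and could not be ordered. Nlrc5 was at 0.155 FPKM with vehicle, at percentile 1.47 of the genes tested.

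The catalytic subunits of the immunoproteasome fell; with vehicle their FPKM stood at percentiles 46.3 to 66.3 of the genes tested. Psmb8, which takes the place of Psmb5, was at 10.9 and 9.64 CPM in the vehicle libraries and at 7.65 and 8.11 CPM in the carfilzomib libraries. Both treated libraries lay below both vehicle libraries, but groups that do not overlap were seen in all 10 genes and in 79.8% of all genes tested. The log2 fold change of -0.38 ± 0.12 (SE) gave an edgeR adjusted p of 0.0149.

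Psmb9, the counterpart of Psmb6, was at 6.30 and 8.17 CPM with vehicle and at 4.87 and 5.30 CPM with carfilzomib. The vehicle libraries differed from each other by more than the treated ones did, and the groups did not overlap. The log2 fold change of -0.51 ± 0.16 (SE) gave an edgeR adjusted p of 0.0131. Psmb10, the counterpart of Psmb7 and the most abundant of the 3, was at 16.6 and 17.5 CPM with vehicle and at 13.5 and 14.1 CPM with carfilzomib. All 4 values kept the groups apart, as was true of 79.8% of all genes tested. Its change of -0.31 ± 0.09 (SE) in log2 gave an edgeR adjusted p of 0.0106.

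These falls rest on few reads, from 93 to 324 counts per gene and library, and did not pass under every analysis. With DESeq2 the adjusted p was 0.168 for Psmb8, 0.133 for Psmb9 and 0.141 for Psmb10. Without carfilzomib replicate 1 all 3 were lost, with edgeR adjusted p of 0.0906, 0.0805 and 0.0770. Without vehicle replicate 1 Psmb8 had a log2 fold change of -0.29 and an edgeR adjusted p of 0.104. Without vehicle replicate 2 Psmb9 had -0.31 and 0.188, and Psmb10 had -0.27 and 0.0620. The direction was downward in every alternative run for these genes. Macrophage markers fell in the same libraries, by a median log2 fold change of -2.09, and their part in these falls was not tested.

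The constitutive counterparts went the other way. Psmb5 was at 105 and 110 CPM with vehicle and at 198 and 191 CPM with carfilzomib. Psmb6, whose deposited counts carry decimals, was at 118 and 112 CPM and then at 272 and 288 CPM. Psmb7 was at 164 and 165 CPM and then at 399 and 393 CPM. For Psmb5, Psmb6 and Psmb7 the log2 fold changes were 0.86, 1.28 and 1.27. The 95% interval of each inducible gene, -0.64 to -0.12 for Psmb8, -0.85 to -0.16 for Psmb9 and -0.51 to -0.11 for Psmb10, lay wholly below that of its counterpart, 0.76 to 0.95, 1.18 to 1.38 and 1.18 to 1.36. All 14 constitutive subunits of the core particle rose, with log2 fold changes from 0.86 to 2.30 and a median of 1.31; Psmb3 and Psma5 had the largest, 2.30 and 1.84.

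**Figure D2:**
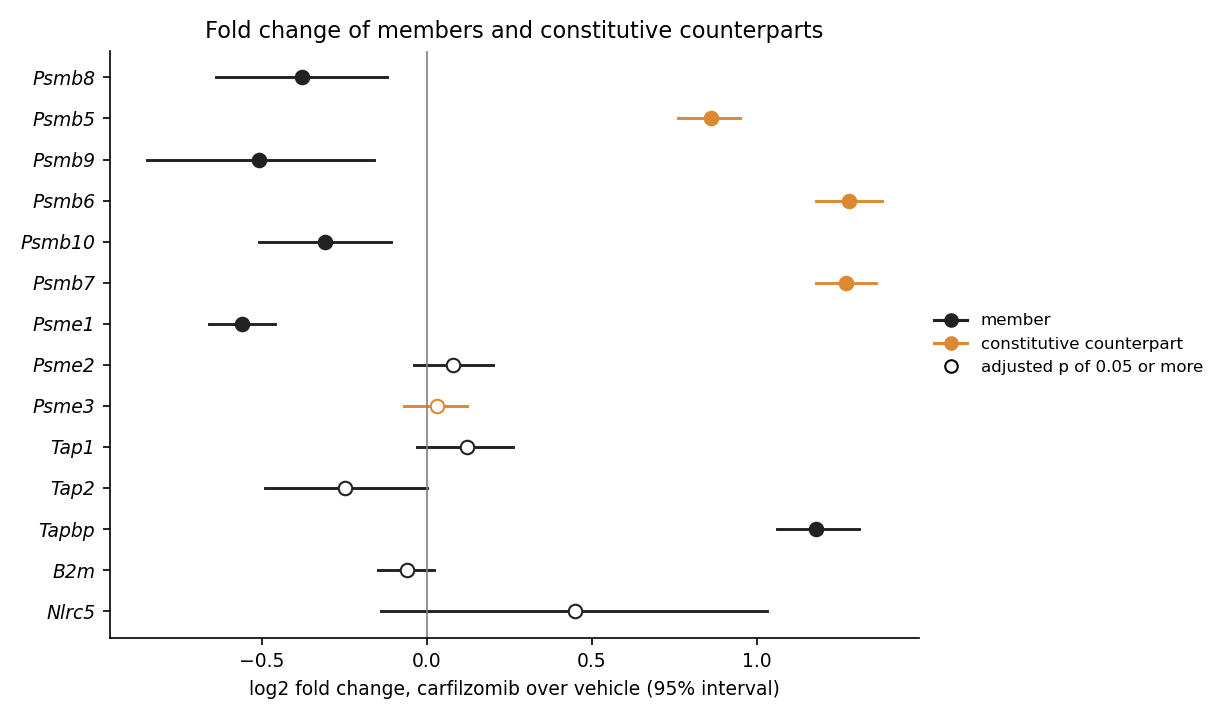
Log2 fold change, carfilzomib over vehicle, with its 95% interval, for the 10 genes (black) and their constitutive counterparts (orange); open circles did not pass. Psmb8, Psmb9, Psmb10 and Psme1 lie below 0, while Psmb5, Psmb6, Psmb7 and Tapbp lie between 0.86 and 1.28.

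The makeup of the catalytic transcripts shifted toward the constitutive genes. Within the pair of Psmb8 and Psmb5, Psmb8 made up 7.42% and 6.36% of the FPKM in the vehicle libraries and 2.90% and 3.18% in the carfilzomib libraries. Psmb9 made up 4.20% and 5.67% of its pair with Psmb6 with vehicle, and 1.44% and 1.46% with carfilzomib. Psmb10 made up 8.99% and 9.37% of its pair with Psmb7, and then 3.18% and 3.38%. In every pair both treated libraries lay below both vehicle libraries.

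On the log2 scale the ratio of inducible to constitutive FPKM changed by -1.24 for Psmb8 over Psmb5, -1.80 for Psmb9 over Psmb6 and -1.58 for Psmb10 over Psmb7. The SD within a group was between 0.02 and 0.32. A two-sided exact permutation test over 2 against 2 libraries cannot give a p below 0.333, and each ratio gave that value, as did the adjusted p over the 5 ratios tested. Summed over the 3 pairs, the inducible genes made up 6.92% and 7.30% of the catalytic FPKM with vehicle and 2.49% and 2.61% with carfilzomib. The inducible sum was 34.9 and 36.7 FPKM and then 27.5 and 29.2 FPKM. The constitutive sum went from 469.7 and 466.0 FPKM to 1076 and 1090 FPKM.

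**Figure D3:**
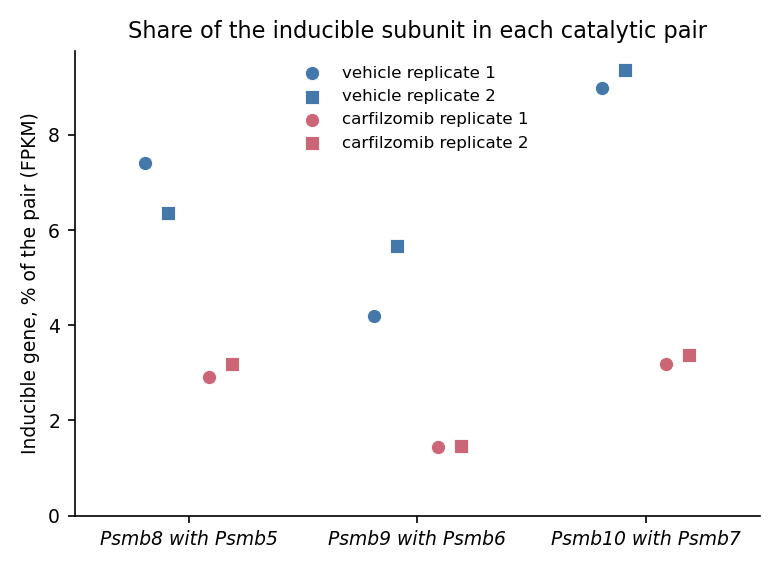
Share of the inducible gene in the summed FPKM of each catalytic pair, in percent, with 1 point per library. Vehicle libraries lie between 4.20% and 9.37% and carfilzomib libraries between 1.44% and 3.38%.

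The PA28 subunits parted. Psme1, PA28 alpha, was at 146 and 152 CPM with vehicle and at 100.2 and 102 CPM with carfilzomib. The groups were far apart relative to the spread of either, and the log2 fold change of -0.56 ± 0.05 (SE) gave an edgeR adjusted p of 8.51e-08. Psme1 fell in each alternative run, with log2 fold changes from -0.58 to -0.52. Psme2, PA28 beta, was at 77.3 and 80.8 CPM with vehicle and at 82.8 and 84.6 CPM with carfilzomib. The groups did not overlap but lay close: the change in log2 was 0.08, its 95% interval ran from -0.04 to 0.20 and the edgeR adjusted p was 0.217. Its deposited counts carry decimals, which is called split reads here.

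The FPKM ratio of Psme1 to Psme2 was 2.57 and 2.55 in the vehicle libraries and 1.65 in both carfilzomib libraries. This pair was looked at after its values were seen and was given no test. Psme3, which has split reads, encodes the separate nuclear activator PA28 gamma and is not an interferon target. It was at 159 and 162 CPM with vehicle and 166 and 162 CPM with carfilzomib, with a log2 fold change of 0.03. The log2 ratio of Psme1 to Psme3 changed by -0.58 and that of Psme2 to Psme3 by 0.06, each with the exact permutation p of 0.333 that is the smallest possible. Of 8 further activators and assembly factors, Psme3 included, 5 rose and 0 fell, 62.5% called against 60.7% of all genes. Psme4, the activator PA200, rose by a log2 fold change of 0.97 and Pomp, which matures both forms of the core particle and has split reads, by 0.89.

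The transporter genes did not pass. Tap1 was at 29.4 and 28.6 CPM with vehicle and at 32.1 and 30.9 CPM with carfilzomib, with a log2 fold change of 0.12, a 95% interval from -0.03 to 0.26 and an edgeR adjusted p of 0.144. Tap2 was at 12.0 and 12.7 CPM and then at 9.59 and 11.2 CPM, with a log2 fold change of -0.25, an interval from -0.49 to 0.00 and an edgeR adjusted p of 0.0782. Both genes have split reads. In neither gene did the groups overlap, which was also true of 79.8% of all genes tested.

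Of the 4 neighbours on chromosome 20, Psmb8 and Psmb9 were called lower and Tap1 and Tap2 did not pass. Tap2 was not set apart from the 2 called genes: its interval, -0.49 to 0.00, overlapped those of Psmb8, -0.64 to -0.12, and Psmb9. The intervals of the divergent pair, -0.85 to -0.16 for Psmb9 and -0.03 to 0.26 for Tap1, did not overlap. However, Psmb9 had a DESeq2 adjusted p of 0.133, and its log2 fold change was -0.31 without vehicle replicate 2. The FPKM ratio of Psmb9 to Tap1 was 0.652 and 0.868 with vehicle and 0.462 and 0.521 with carfilzomib; it was chosen after the values were seen and was not tested.

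Tapbp, which encodes tapasin, rose the most. It was at 39.3 and 39.2 CPM in the vehicle libraries and at 90.6 and 87.7 CPM in the carfilzomib libraries. Replicates were close and the groups far apart, and the rise was 2.27-fold, or 1.18 ± 0.06 (SE) in log2, at an edgeR adjusted p of 2.44e-10. Only 2.80% of all genes tested had a larger log2 fold change. Its rise passed in each alternative run, with log2 fold changes from 1.16 to 1.22.

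B2m, which encodes the light chain, was at 405 and 398 CPM with vehicle and at 391 and 376 CPM with carfilzomib. The difference of -0.06 in log2, with a 95% interval from -0.15 to 0.02, missed the threshold at an edgeR adjusted p of 0.181. The FPKM ratio of Tapbp to B2m went from 0.114 and 0.116 to 0.272 and 0.274. This ratio was not planned and was given no test.

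Of 13 other genes of peptide supply and loading, 10 rose and 1 fell, 84.6% called against 60.7% of all genes. Their median log2 fold change was 0.40, and that of all genes tested was 0.003. The largest rises were those of cytosolic peptidases, Ide (insulin-degrading enzyme) with 1.35 and Blmh (bleomycin hydrolase) with 0.81. Calr, the chaperone calreticulin of the loading complex, was the only one lower, at 1724 and 1699 CPM and then at 1510 and 1471 CPM, a log2 fold change of -0.20. Tapbpl, Canx and Erap1 were picked from this group with their values known. Tapbpl, a relative of tapasin, rose by 0.43, Canx (calnexin, split reads) by 0.40, and Erap1, which trims peptides in the endoplasmic reticulum, had -0.07 with an edgeR adjusted p of 0.318.

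The summed level of the class I heavy chains, named RT1 in the rat, moved little, while single genes went both ways. All 18 tested had split reads, and rat class I genes include near-identical copies, so single genes are uncertain. The sum covers the 21 of 32 listed genes that were matched. It was 253 and 261 CPM with vehicle and 251 and 260.3 CPM with carfilzomib. By gene, 2 rose, 3 fell and 13 did not pass, 27.8% called against 60.7% of all genes. RT1-CE10 and RT1-A1, a classical class I gene, rose by log2 fold changes of 0.31 and 0.28. Both calls were lost with DESeq2. The non-classical RT1-S3 fell by 0.99 on the log2 scale and RT1-N3 by 0.54. The third to fall was RT1-T24-1, named after its values were seen, from 2.85 and 3.25 CPM to 1.15 and 1.32 CPM, a log2 fold change of -1.30. Leaving out vehicle replicate 1 gave 1 higher, leaving out vehicle replicate 2 gave 4, and leaving out carfilzomib replicate 2 gave 0.

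Nlrc5 was barely detected, with 27, 28, 43 and 34 counts in the 4 libraries, or 1.45 and 1.52 CPM with vehicle and 2.25 and 1.80 CPM with carfilzomib. At this depth the change of 0.45 in log2 was not detectable; its 95% interval, from -0.14 to 1.03, holds both no change and a 2-fold rise, and the edgeR adjusted p was 0.172. Among its 11 DNA-binding partners and coactivators 3 rose, 5 fell and 3 did not pass, 72.7% called against 60.7% of all genes. The 5 that fell are subunits of the RFX and NF-Y complexes; besides Nfya, Nfyb and Rfx5, with log2 fold changes of -0.44, -0.40 and -0.35, they were Rfxap and Nfyc, with -0.38 and -0.26, named after their values were seen. Atf1 and Kat2b rose by 0.41 and 0.46. Rfxank, the remaining RFX subunit, had 0.26 and an edgeR adjusted p of 0.160.

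Upstream of these genes, the interferon ligands Ifna1, Ifnk and Ifne had at most 3 counts in any library, and Ifnb1 and Ifng were not analysed here. Of 6 receptor genes 5 rose and 0 fell, 83.3% called against 60.7% of all genes. Their median log2 fold change was 0.28, against 0.003 for all genes tested. Il10rb rose by 0.56 and Ifnar1, a subunit of the type I interferon receptor with split reads, by 0.48. With DESeq2 3 of them rose. Of 18 signalling factors and regulators 7 rose and 4 fell, while 7 missed the threshold; at 61.1% called this is near the 60.7% of all genes, and the median log2 fold change was 0.08.

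Factors that act on the ISRE did not move as one. Stat2 fell by 0.40 on the log2 scale, from 75.8 and 71.0 CPM to 54.7 and 56.4 CPM. Irf9, which binds Stat2 and lies near Psme2 in the genome, fell by 0.36, from 21.2 and 22.7 CPM to 17.0 and 17.2 CPM. Irf1, an activator of Psmb9 and Tap1, rose by 0.28, from 33.5 and 33.3 CPM to 40.0 and 41.1 CPM. Jak2 and Tyk2, kinases of the receptors, rose by 0.56 and 0.34.

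Of 43 interferon-stimulated genes outside the antigen pathway 11 rose, 17 fell and 15 did not pass, 65.1% called against 60.7% of all genes, with a median log2 fold change of -0.19. Samhd1 and Ifi44 rose by 1.16 and 1.10, while Ifitm3 (split reads) and Lgals3bp fell by 0.65 and 0.56. Cxcl10 and Isg15, low genes picked with their values known, had log2 fold changes of -1.08 and 1.15. With DESeq2 7 rose and 7 fell. The number higher was 6 without vehicle replicate 1, and the number lower was 11 without vehicle replicate 1 and 10 without vehicle replicate 2.

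Genes of class II presentation, a pathway of antigen-presenting cells, were low or near the floor apart from Ifi30. Their summed level was 80.5 and 85.3 CPM with vehicle and 63.1 and 58.2 CPM with carfilzomib, most of it from Ifi30, a lysosomal thiol reductase that fell by 0.39 on the log2 scale. Of 13 genes 6 were tested: 5 fell and 1, RT1-Db1, rose, 100% called against 60.7% of all genes. The RT1-Db1 call was lost with DESeq2, with limma-voom, without the low-count filter and with the replicate block. RT1-Da and RT1-Ba were at 0 counts in both carfilzomib libraries and had at most 4 counts with vehicle.

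**Figure D4:**
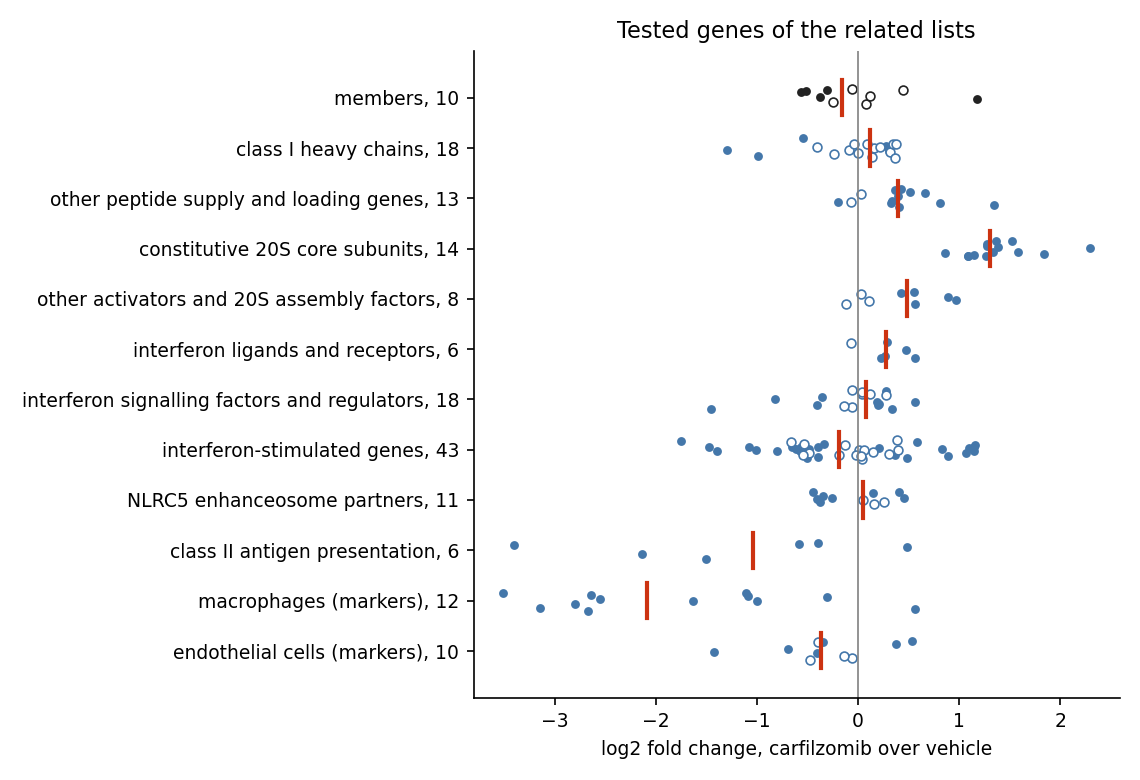
Log2 fold change of every tested gene of the related lists, carfilzomib over vehicle, with the number of genes after each name; open points did not pass and red bars are medians. The 10 genes have a median of -0.16, against 1.31 for the constitutive core subunits, -0.19 for interferon-stimulated genes and -2.09 for macrophage markers.

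The genes whose log2 CPM, centred on the gene mean, lay closest over the 4 libraries to those of Tapbp were Tbl3, Keap1 and LOC100359937, with Euclidean distances of 0.027, 0.032 and 0.039. For Psme1 they were Pdgfa, Fzd2 and Serpinh1, with distances of 0.011, 0.012 and 0.018. With 4 libraries in 2 groups such closeness mainly says that the fold changes were alike.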

How the data were processed

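RNA of 4 libraries was measured, 2 with vehicle and 2 with carfilzomib, grouped by sample title; the table's control columns were taken as vehicle of the same number. The authors deposited estimated counts, not normalised, with decimals (tolerance 1e-06) at 28.5% to 28.9% of genes in each library, and FPKM, per the file headers. A deposited table gives log2 fold changes with p-values and q-values from DESeq2 for 6063 genes, per the file headers. The submitters' processing notes name, without roles, Rnor_6.0, R 3.3.2, DESeq2, featureCounts 1.6.0, Bowtie2, HISAT, cutadapt 2.0 and FastQC 0.11.8. Another 10 columns of per-sample values were left unused.

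Counts were rounded and tested with edgeR 4.0.16 (filterByExpr, minimum count 10, minimum total 15; TMM; robust quasi-likelihood F test; Benjamini-Hochberg at 0.05) in R 4.3.3. SEs were derived from the log2 fold change and its F statistic. FPKM served to compare genes and for ratios, without a pseudocount. Replicates differed by more than sampling noise (chi-square per degree of freedom 3.32 and 2.99). The scripts were tested on simulated counts.

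The members, the 9 pathway lists and the 7 marker lists were chosen with earlier results of these data known; 216 of 239 list entries were matched, 1 through RefSeq. Named by rule were all members, their counterparts, up to 2 rises and 2 falls per pathway list at a mean of at least 10 CPM, Irf1, Irf9 and Rfx5 with 1 further gene that is not reported here, the leading markers and the nearest genes. Alternatives were DESeq2 1.42.0, limma-voom (limma 3.58.1), RLE factors, library size alone, no filter, a stricter filter (1 CPM in 2 libraries, total 50), a replicate block and each library left out. Ratios were also computed from FPKM + 1, FPKM + 0.1, CPM and genes at 1 FPKM or more. Protein sequences were not used here.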

Additional observations from a re-analysis of the deposited data

How the results depend on the processing

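Directions of all 10 genes were the same in the 11 alternatives, and the calls of Tapbp and Psme1 passed in each. DESeq2 called fewer genes throughout, 3340 higher and 3149 lower in place of 4444 and 4368. With it 1 member was lower in place of 4; 0 class I heavy chains, 3 interferon receptors, 7 interferon-stimulated genes and 0 class II genes were higher, and 2 signalling factors and 7 interferon-stimulated genes lower. Library size alone gave 5 class I heavy chains higher. The class II gene called higher was also lost, leaving 0, with limma-voom, without the low-count filter and with the replicate block. Leaving out 1 library gave 1 to 4 members lower, 0 to 4 class I heavy chains higher, 6 to 11 interferon-stimulated genes higher and 10 to 12 lower, and 0 to 1 class II gene higher. Within 100 bases before the start, 3 members held the GC box and 4 the ISRE letters. The deviations of same-numbered libraries had a correlation of -0.00011, so the numbers were not taken as pairs; with the replicate block 1 member was higher and 4 lower, and the differences of the 5 ratios were the same, with a paired exact permutation p of 0.5, the smallest that 2 pairs allow. The ratio changes ranged over their alternatives from -1.35 to -1.12 for Psmb8, -2.03 to -1.57 for Psmb9 and -1.62 to -1.53 for Psmb10. The 2 libraries of a group and counts of 27 to 43 limit Nlrc5.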
